A study of Homo sapiens with 6 samples.

Results

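The genes described here encode lysosomal enzymes and their helper proteins, and the proton pump that acidifies the lysosome. They were chosen by symbol: 34 listed genes (proteases, glycosidases, sulfatases, lipid-handling proteins, membrane proteins and the transcription factors TFEB, TFE3 and MITF) and every symbol that starts with ATP6V0 or ATP6V1, with ATP6AP1 and ATP6AP2, leaving out antisense and pseudogene rows. This gave 59 genes, 34 listed and 25 of the pump, of 26485 symbols in the count table. Of these, 55 had enough counts to be tested, and the 4 that did not were all pump genes.

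The libraries came from PC-9, an EGFR-mutant line of human lung adenocarcinoma, grown in RPMI medium with serum. The shIFITM3 group (3 samples) stably carried a short hairpin RNA (shRNA) against IFITM3, an interferon-induced membrane protein of endosomes and lysosomes, and the shControl group (3 samples) a control shRNA, named ShEV in the count table. The study's text speaks of a specific shRNA against IFITM3 and names no other hairpin, so an effect of that hairpin sequence and an effect of less IFITM3 cannot be told apart. The labels name no drug treatment and do not say whether the populations were clones. The labels call the samples biological replicates without saying what was repeated, so the p-values measure the spread between these samples.

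The lysosome is the acidic compartment in which cells degrade proteins, complex sugars, glycosaminoglycans and lipids taken up from outside or delivered by autophagy. Its hydrolases are made in the endoplasmic reticulum, tagged in the Golgi with mannose 6-phosphate and carried to the lysosome, where most of them need acid pH. That acidity comes from the V-ATPase, whose cytosolic V1 sector hydrolyses ATP and turns a rotor that drives protons through the membrane-embedded V0 sector. TFEB, TFE3 and MITF are related transcription factors that bind E-box sequences (CACGTG and its extensions) in promoters of lysosomal genes, and the kinase mTORC1 holds them in the cytoplasm when nutrients are plentiful.

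Depth ranged from 21342028 to 77228760 counts a library, with 1 control library (replicate 2) far deeper than the other 5. Levels are given as CPM, counts scaled to the library size as adjusted by edgeR. IFITM3 itself was at 57.0, 60.5 and 62.8 CPM in shControl and at 10.4, 12.9 and 9.75 CPM in shIFITM3, which is 0.183 times the control level. The 7 markers of lung epithelium summed to 9897 to 10020 CPM in shControl and 8810 to 9033 CPM in shIFITM3. Among them EGFR (0.74) and EPCAM (0.09) rose, CDH1 (-0.60), KRT8 (-0.50) and KRT18 (-0.29) fell, and KRT7 (-0.03) and KRT19 (0.03) did not pass. Of 5 leukocyte markers only CSF1R could be tested (log2 fold change 2.40), and the 5 summed to 1.10 to 1.60 CPM in shControl and 4.96 to 5.27 CPM in shIFITM3, with PTPRC, CD14, CD3E and CD79A too low to be tested. The 5 endothelial markers summed to 3.43 to 4.29 CPM in shControl and 5.26 to 6.36 CPM in shIFITM3, with PECAM1 lower (-1.66), CDH5 (1.68) and KDR (3.03) higher. The 5 fibroblast markers summed to 8.98 to 10.5 CPM in shControl and 10.0 to 13.5 CPM in shIFITM3. Nearly all of that was COL1A1, which was higher (0.29, adjusted p = 0.0381 by edgeR). COL1A2 and COL3A1 were too low to be tested, and DCN and LUM were at 0. The part of these markers in the results below was not tested. In such bulk samples, fewer cells that express a gene and less RNA of it per cell cannot be told apart.

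More lysosomal and pump genes were higher in shIFITM3 than lower. A gene is said to rise or fall here only where its adjusted p was under 0.05 (edgeR's quasi-likelihood test, Benjamini-Hochberg adjustment over all 14018 tested genes). By that rule 31 of the 55 tested members rose, 9 fell and 15 did not pass, so 72.7% changed, against 56.1% of all tested genes (27.7% higher and 28.4% lower). Because most tested genes passed, a stricter rule is given beside it, a test against a fold of 1.2 in either direction. It left 14 members higher and 2 lower, 29.1% of the tested members, against 25.0% of all tested genes (14.5% higher and 10.5% lower). Taken over both directions, the share of members past the stricter rule was thus near that of all genes. By direction, the share higher was above the 14.5% of all tested genes and the share lower was below their 10.5%, differences that were not tested.

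The median log2 fold change of the 34 listed genes was 0.16 and that of the 21 tested pump genes 0.12, against -0.0001 over all tested genes. Among the listed genes 19 rose, 7 fell and 8 did not pass, with 11 past 1.2-fold (9 higher, 2 lower). Among the pump genes 12 rose, 2 fell and 7 did not pass, with 5 past 1.2-fold, all higher (0 lower by edgeR, DESeq2 and limma-voom, and 1 lower at an unadjusted p under 0.05 in edgeR). In 44 of the 55 tested members the 2 groups' CPM ranges were apart, against 60.9% of all tested genes (30.1% with shIFITM3 above and 30.8% with it below). Most single changes were small: the median absolute log2 fold change was 0.20 over the members and 0.25 over all tested genes.

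**Figure D1:**
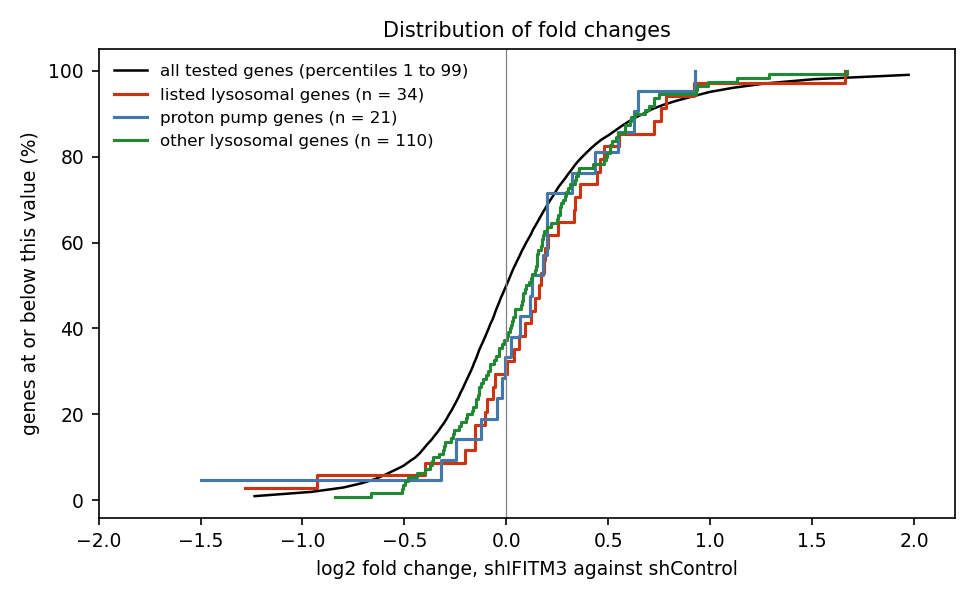
Cumulative distribution (y axis, percent of genes at or below a value) of log2 fold changes (shIFITM3 against shControl, x axis) for all 14018 tested genes and for the 34 listed lysosomal genes, the 21 tested pump genes and the 110 other tested lysosomal genes. The medians lie at 0.16, 0.12 and 0.11 for the 3 gene groups and at -0.0001 for all tested genes.

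The 3 transcription factors differed in direction. TFE3 (chromosome X, 49028726 to 49043357, GRCh38) was at 47.7, 47.9 and 48.6 CPM in shControl and at 66.3, 65.7 and 69.0 CPM in shIFITM3 (replicates 1, 2 and 3 in that order, here and below). MITF (chromosome 3, 69739464 to 69968332) was at 32.5, 29.2 and 28.1 CPM in shControl and 42.2, 36.7 and 42.8 CPM in shIFITM3. For both genes every shIFITM3 sample lay above every control sample, and both rose past 1.2-fold (TFE3: log2 fold change 0.48, SE 0.048, adjusted p = 9.11e-09; MITF: log2 fold change 0.45, SE 0.07, adjusted p = 7.54e-06). TFEB (chromosome 6, 41683978 to 41736223), which is best known for control of lysosomal genes, was at 3.72, 4.96 and 4.96 CPM in shControl and 3.68, 3.39 and 3.43 CPM in shIFITM3. Its groups were set apart by a narrow gap, with the lowest control sample just above the highest shIFITM3 sample. TFEB passed the test narrowly (log2 fold change -0.40, SE 0.17, adjusted p = 0.0475). That call did not hold without any one of 5 of the 6 libraries: the adjusted p was 0.213 without shControl replicate 2, 0.129 without shControl replicate 3 and 0.059, 0.0969 and 0.0959 without shIFITM3 replicates 1, 2 and 3. It was also lost with DESeq2 (adjusted p = 0.0897), with RLE scaling (0.05), with total-count scaling (0.0538) and with a strict filter on low counts (0.0546). RNA levels do not show how much of these factors was in the nucleus.

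Promoters of several members hold the letters these factors bind, whichever way the gene moved. The stretches printed here were chosen because they carry CACGTG and belong to genes that rose strongly (NEU1), rose moderately (CTSA, MCOLN1, ATP6V0D1) or did not pass the test (LAMP1, GAA, ATP6V1G1). Capitals mark each CACGTG, all stretches read 5′ to 3′ on the gene's own strand, lie before its RefSeq start site, and come from RefSeq windows on GRCh38.p14. They lie at chr13:113297039-113297238 (LAMP1, plus strand), chr19:7522524-7522623 (MCOLN1, plus), chr17:80101481-80101557 (GAA, plus), chr9:114587669-114587745 (ATP6V1G1, plus), chr6:31862907-31862971 (NEU1, minus), chr20:45891289-45891318 (CTSA, plus) and chr16:67481198-67481227 (ATP6V0D1, minus).
NEU1: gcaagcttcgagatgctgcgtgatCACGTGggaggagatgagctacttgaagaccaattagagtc
ATP6V0D1: ccccttatggtCACGTGaggcgcttgcgcg
MCOLN1: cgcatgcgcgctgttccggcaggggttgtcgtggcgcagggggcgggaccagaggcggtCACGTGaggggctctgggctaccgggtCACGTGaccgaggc
CTSA: ctgtCACGTGgcgccggagttCACGTGact
GAA: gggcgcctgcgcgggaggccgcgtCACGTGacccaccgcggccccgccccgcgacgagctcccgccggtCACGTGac
ATP6V1G1: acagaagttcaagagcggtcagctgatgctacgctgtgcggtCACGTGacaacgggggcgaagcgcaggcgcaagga
LAMP1: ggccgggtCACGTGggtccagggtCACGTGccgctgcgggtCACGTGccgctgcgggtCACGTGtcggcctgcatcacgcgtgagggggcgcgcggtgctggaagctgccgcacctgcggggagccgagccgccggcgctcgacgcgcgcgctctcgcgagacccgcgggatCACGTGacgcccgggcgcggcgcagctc

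CACGTG was searched in windows of 300 bases, 250 before and 50 after each start. It reads the same on both strands, as do its extension TCACGTGA and the longest form searched, TCACGTGA with G before and C after it. Of the 59 members 45 had a window, and 11 of those (24.4%) held CACGTG, against 8.77% of the 27305 genes with a window and 12.3% of the tested genes with one. The extension TCACGTGA was in 6 member genes (13.3%, against 1.18% of all genes with a window and 2.18% of the tested ones) and the longest form in 3, MCOLN1, GAA and ATP6V1G1 (6.67%, against 0.421% and 0.856%). The LAMP1 window held 6 matches to CACGTG, 5 of them in the printed stretch, and the MCOLN1, GAA and CTSA windows 2 each.

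Members with these letters rose less often by count than members without them, a difference that was not tested. Of the 11 tested members with CACGTG 5 rose, 2 fell and 4 did not pass (median log2 fold change 0.09), and of the 31 tested members with a window but no CACGTG 20 rose, 6 fell and 5 did not pass (median 0.18). NEU1, with 1 match, had a log2 fold change of 1.66, and ATP6V0D1, with 1 match, of 0.65. LAMP1 had -0.06, and GAA and ATP6V1G1, each with the longest form, had 0.09 and 0.07, none of the last 3 past the test. A match describes the letters of this window and is not a measured binding site.

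All 8 listed proteases changed, 4 higher and 4 lower, and 3 passed 1.2-fold. Counts per role, here and below, stand against 56.1% of all tested genes that passed (27.7% higher and 28.4% lower). Over all tested genes 25.0% passed 1.2-fold, and 60.9% did not overlap between groups. The largest change was the fall of CTSC (chromosome 11, 88293592 to 88337736), the dipeptidyl peptidase cathepsin C that activates granule serine proteases in immune cells. CTSC was at 183, 169.9 and 179 CPM in shControl and 69.1, 77.4 and 71.3 CPM in shIFITM3. All control samples lay far above all knockdown samples, and the mean fell from 177 ± 6.56 to 72.6 ± 4.29 CPM (SD, n = 3; log2 fold change -1.28, SE 0.046, adjusted p = 3.87e-17). CTSH (chromosome 15, 78921058 to 78945046), the aminopeptidase cathepsin H, which in lung epithelium helps process a surfactant protein, was at 39.1, 38.6 and 39.5 CPM in shControl and 21.9, 19.6 and 20.1 CPM in shIFITM3. CTSH also fell without overlap, to 0.526 times its control level (log2 fold change -0.93, SE 0.066, adjusted p = 2.02e-11). TPP1 (chromosome 11, 6612768 to 6619422), a tripeptidyl peptidase, went the other way, with 36.7, 35.6 and 37.7 CPM in shControl and 50.7, 51.2 and 49.1 CPM in shIFITM3. Every knockdown sample of TPP1 exceeded every control sample (log2 fold change 0.46, SE 0.054, adjusted p = 1.2e-07).

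The other 5 proteases moved little although each passed the test and none overlapped between groups. The endopeptidases split in direction: CTSD, an aspartic protease, fell by 0.11 on the log2 scale (adjusted p = 0.00415) and CTSL, a cysteine endopeptidase, fell by 0.15 (adjusted p = 0.00338), while CTSB rose by 0.12 (adjusted p = 0.00394). CTSZ, a carboxypeptidase, rose by 0.17, and CTSA, which also holds NEU1 and GLB1 in a protective complex, rose by 0.33. CTSA was just outside the 1.2-fold rule (adjusted p = 0.0598 in that test). The CTSB rise was lost when edgeR's fit was corrected for GC content and transcript length (adjusted p = 0.0626). CTSA shares exon sequence with NEURL2 and PLTP on the opposite strand, so its counts may hold reads of those genes if strand was not used in counting.

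Of the 10 glycosidases, which remove sugars from glycoproteins, glycolipids and glycosaminoglycans, 5 rose, none fell and 5 did not pass. The 0 of 10 lower holds for edgeR's test also at an unadjusted p under 0.05, and for DESeq2 and limma-voom. NEU1 (chromosome 6, 31857659 to 31862821), the lysosomal sialidase that trims sialic acid from glycoconjugates, had the largest rise among the 55 tested members. Its level was 15.5, 14.8 and 14.8 CPM in shControl and 45.7, 48.3 and 48.0 CPM in shIFITM3. All knockdown samples lay far above all control samples, and the mean went from 15.0 ± 0.377 to 47.3 ± 1.40 CPM (SD, n = 3), a 3.16-fold rise (log2 fold change 1.66, SE 0.065, adjusted p = 2.71e-16). IDUA (chromosome 4, 986997 to 1004564), which cleaves iduronic acid from heparan and dermatan sulfate, was low, at 3.58, 3.94 and 4.01 CPM in shControl and 6.91, 5.91 and 6.36 CPM in shIFITM3. It rose without overlap (log2 fold change 0.72, SE 0.15, adjusted p = 0.000182), and it shares exon sequence with SLC26A1 on the opposite strand.

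Smaller rises were those of GLA, the alpha-galactosidase lost in Fabry disease (log2 fold change 0.25), of GLB1, the beta-galactosidase whose activity is used as a senescence stain (0.14), and of MAN2B1, an alpha-mannosidase (0.18). The GLB1 call ended without shIFITM3 replicate 2 (adjusted p = 0.055). The MAN2B1 call ended without shControl replicate 1 (adjusted p = 0.0906) and without shIFITM3 replicate 1 (0.0539) or 2 (0.0802), and with the GC and length correction (0.126). The remaining 5 did not pass: GAA, the acid alpha-glucosidase that degrades glycogen (0.09), GUSB, a beta-glucuronidase (-0.09), HEXA, the alpha chain of beta-hexosaminidase (0.04), MANBA, a beta-mannosidase (0.01), and NAGLU, which acts on heparan sulfate (0.16). GAA rose narrowly without shControl replicate 2 (adjusted p = 0.0365).

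The sulfatases remove sulfate groups from lipids and glycosaminoglycans, and 2 of the 3 rose past 1.2-fold. IDS (chromosome X, 149476988 to 149505306), iduronate 2-sulfatase, was at 374, 376 and 362 CPM in shControl and 708, 689 and 705 CPM in shIFITM3. Its values were close together within each group and the mean rose 1.89-fold, from 370.4 ± 7.70 to 701 ± 10.2 CPM (SD, n = 3; log2 fold change 0.92, SE 0.029, adjusted p = 3.7e-18). ARSA (chromosome 22, 50622754 to 50628152), which desulfates sulfatide, was at 4.76, 5.01 and 4.09 CPM in shControl and 6.86, 7.30 and 6.36 CPM in shIFITM3 (log2 fold change 0.55, SE 0.14, adjusted p = 0.00177). ARSB, which acts on dermatan and chondroitin sulfate, went the other way and fell by 0.20 (adjusted p = 0.0234). The ARSB call ended without shControl replicate 1 (adjusted p = 0.0518) or 3 (0.0659) and without shIFITM3 replicate 1 (0.0915). IDUA and IDS act in turn on the same iduronic acid residues, and both were higher in all 3 knockdown samples.

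Among the 6 lipid-handling genes, 4 rose, 1 fell and 1 did not pass. The 2 that passed 1.2-fold both act on cholesterol arriving with LDL. LIPA (chromosome 10, 89213572 to 89414679), the acid lipase that hydrolyses cholesteryl esters and triglycerides, was at 48.4, 51.8 and 54.7 CPM in shControl and 92.6, 85.0 and 89.3 CPM in shIFITM3. NPC1 (chromosome 18, 23506184 to 23586506), the membrane protein that exports the freed cholesterol from the lysosome, was at 43.7, 43.8 and 42.9 CPM in shControl and 73.0, 73.7 and 73.8 CPM in shIFITM3. In both genes all knockdown samples lay above all control samples, by 1.72-fold for LIPA (log2 fold change 0.78, SE 0.051, adjusted p = 3.78e-12) and 1.69-fold for NPC1 (log2 fold change 0.76, SE 0.048, adjusted p = 1.84e-12). LIPA shares exon sequence with IFIT2, and NPC1 with C18orf8, each on the opposite strand.

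NPC2, the soluble protein that hands cholesterol to NPC1, did not pass (0.06, adjusted p = 0.19), and its exons overlap those of ISCA2. With the GC and length correction NPC2 passed as higher (log2 fold change 0.10, adjusted p = 0.0267). PSAP, the precursor of the saposins, rose by 0.19 on the log2 scale, from 728 ± 5.82 to 830.5 ± 21.7 CPM (SD, n = 3). GM2A, the activator that presents ganglioside GM2 to hexosaminidase, rose by 0.34 but not past 1.2-fold (adjusted p = 0.0989 in that test). PPT1, which removes fatty acids from proteins, fell by 0.15 (adjusted p = 0.000441).

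The main lysosomal membrane glycoproteins were close to their control level. LAMP1 was at 332, 344 and 332 CPM in shControl and 320.4, 323 and 328 CPM in shIFITM3, and LAMP2 at 246, 235 and 244 CPM in shControl and 234, 230.1 and 228 CPM in shIFITM3. In both, every knockdown sample lay below every control sample, yet the difference was small (LAMP1: log2 fold change -0.06, SE 0.031, adjusted p = 0.136; LAMP2: log2 fold change -0.07, SE 0.034, adjusted p = 0.0937) and neither passed. Both passed as lower with upper-quartile scaling (adjusted p = 0.0489 and 0.0358) and with the GC and length correction (0.00507 and 0.0476). In these settings the median log2 fold change over all tested genes was also lower, at -0.0181 and -0.0292, against -0.0001 in the main fit. SCARB2, an abundant membrane protein of the lysosome, rose by 0.20 (adjusted p = 0.000377). MCOLN1, the calcium channel of the lysosomal membrane, rose by 0.36 (adjusted p = 0.00297), and its exons overlap those of PNPLA6 on the same strand. Neither rise passed 1.2-fold.

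**Figure D2:**
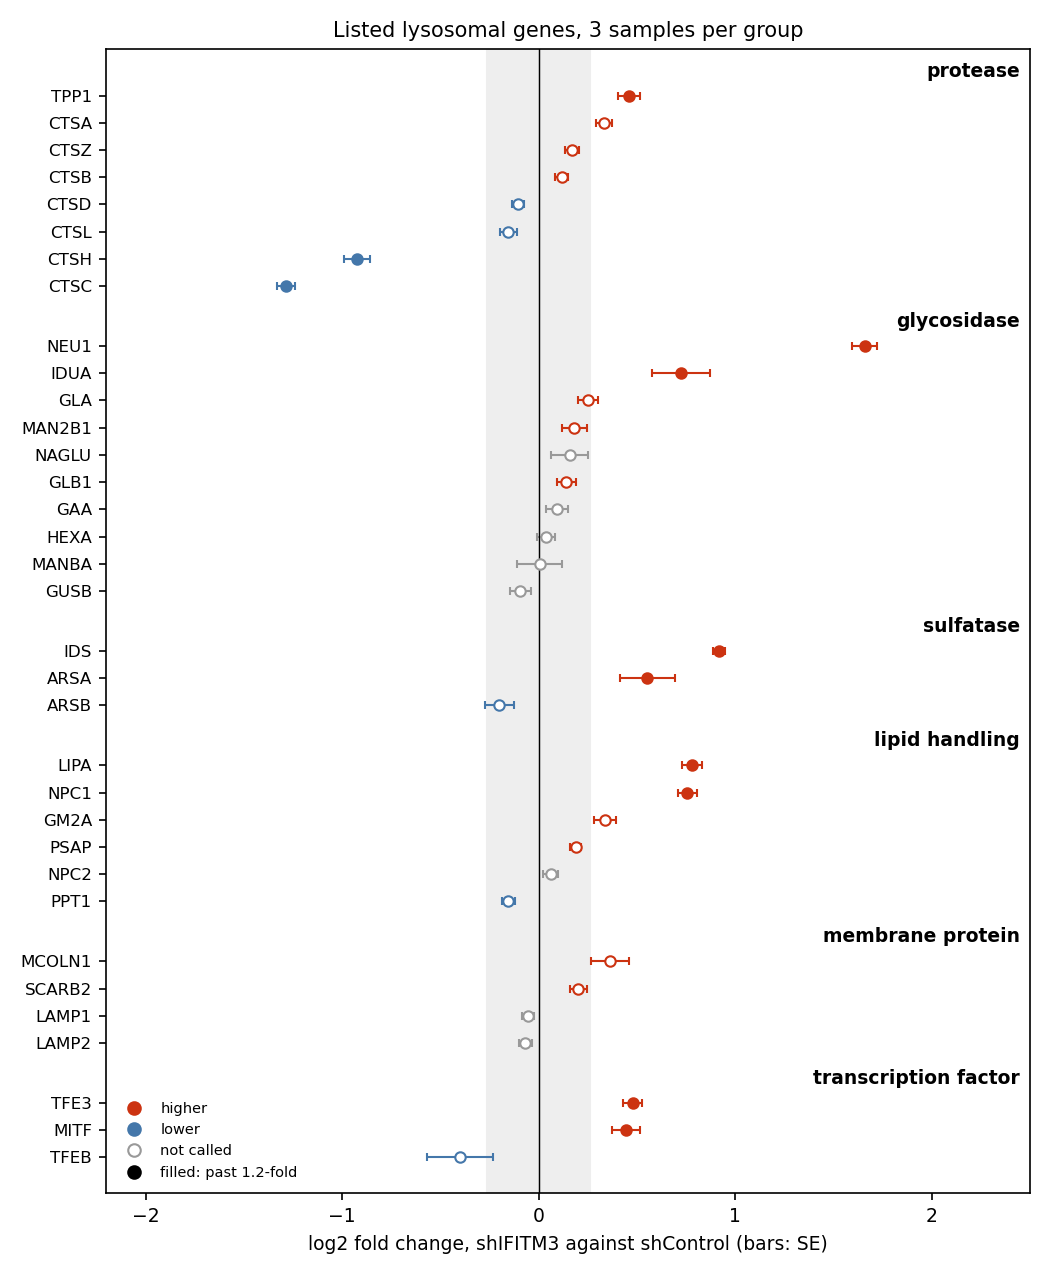
Log2 fold change (shIFITM3 against shControl, x axis) of the 34 listed lysosomal genes, grouped by role, with standard errors as bars, filled points for members past 1.2-fold and a grey band for changes below it. NEU1 lies farthest to the right (1.66) and CTSC farthest to the left (-1.28), and LAMP1 and LAMP2 lie close to 0.

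The 31 listed genes other than the transcription factors summed to 4136, 4189 and 4190 CPM in shControl and 4596, 4668 and 4634 CPM in shIFITM3. The summed level was thus 1.11 times that of the control. Most of the difference between the group means (4172 and 4632 CPM) lay in IDS, which went from a mean of 370.4 to 701 CPM. PSAP, the most abundant of them, went from 728 to 830.5 CPM. By gene, 17 of the 31 rose, 6 fell and 8 did not pass. The pump genes summed to 1377, 1373 and 1409 CPM in shControl and 1624, 1618 and 1638 CPM in shIFITM3, a ratio of 1.17. Within the pump, the V0 sector went from a mean of 547 ± 10.3 to 699.6 ± 1.25 CPM (SD, n = 3; ratio 1.28) and the V1 sector from 634 ± 6.81 to 692 ± 10.6 CPM (ratio 1.09). No sum overlapped between the groups, and the sums were not tested.

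**Figure D3:**
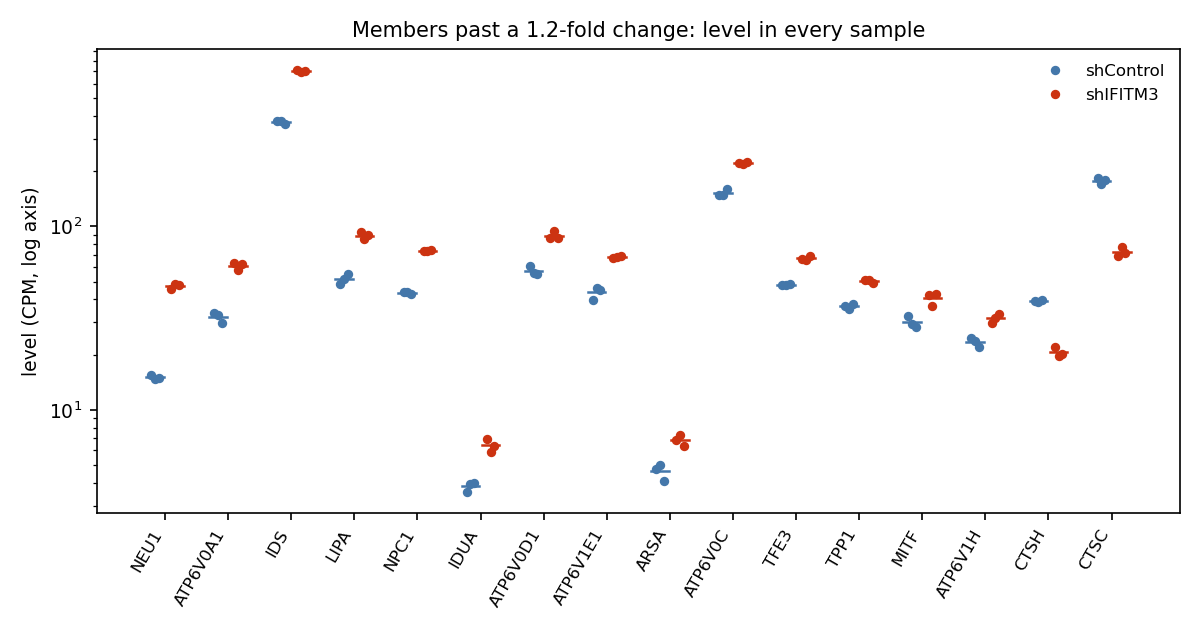
Level of the 16 members past a 1.2-fold change in each of the 6 samples (y axis, CPM, log scale), with shControl and shIFITM3 samples in different colours and horizontal marks at the group means. CTSC and CTSH fall, NEU1, IDS, LIPA, NPC1 and ATP6V0A1 rise, and the values within each group lie close together.

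In the V0 sector, the membrane part that carries the protons, 6 of 8 tested genes rose and 3 passed 1.2-fold. None fell by edgeR's test, by its unadjusted p under 0.05, by DESeq2 or by limma-voom. ATP6V0A1 (chromosome 17, 42458878 to 42522579), one of 4 isoforms of the large subunit a that anchors the pump and lines its proton path, was at 33.8, 32.8 and 29.7 CPM in shControl and 62.8, 58.1 and 62.3 CPM in shIFITM3. Its level rose 1.90-fold, with a wide gap between the groups (log2 fold change 0.93, SE 0.058, adjusted p = 1.93e-12). ATP6V0C (chromosome 16, 2513726 to 2520218), the proteolipid that forms most of the turning ring, was at 148, 148 and 159 CPM in shControl and 221, 219 and 224 CPM in shIFITM3. ATP6V0D1 (chromosome 16, 67438019 to 67481157), subunit d, which couples the ring to the V1 stalk, was at 60.6, 55.7 and 54.7 CPM in shControl and 86.5, 93.9 and 86.4 CPM in shIFITM3. Neither gene overlapped between the groups (ATP6V0C: log2 fold change 0.55, SE 0.037, adjusted p = 7.46e-12; ATP6V0D1: log2 fold change 0.65, SE 0.05, adjusted p = 9.93e-11).

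The rest of V0 moved less. ATP6V0A2, the isoform of subunit a best known from the Golgi, rose by 0.18 (adjusted p = 0.028), and that call ended without any one of shControl replicates 2 and 3 and shIFITM3 replicates 1 and 3 (adjusted p = 0.0621, 0.0766, 0.147 and 0.0745). It also ended with the GC and length correction (0.0761) and with the deepest library thinned to the median depth of the others (0.067). The small subunits e rose by 0.12 (ATP6V0E1) and 0.20 (ATP6V0E2). The ATP6V0E2 call ended without shIFITM3 replicate 2 (adjusted p = 0.0624) and with the GC and length correction (0.0506), and an antisense gene overlaps its exons. ATP6V0B, the other ring proteolipid (0.02), and ATP6V0A4, the isoform of subunit a typical of kidney (-0.13), did not pass. ATP6V0D2, the d isoform known from osteoclasts and macrophages, was too low to be tested, with 0, 2 and 0 counts in shControl and 10, 2 and 8 counts in shIFITM3. With no filter on low counts it passed as higher in edgeR (adjusted p = 0.00859, and 0.0195 against 1.2-fold), which made 13 pump genes higher and 6 past 1.2-fold. In that fit 42.0% of 19234 tested genes passed in either direction, against 56.1% of 14018 in the main fit.

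In the V1 sector, which hydrolyses ATP, 4 of 11 tested genes rose, 2 fell and 5 did not pass, with 2 past 1.2-fold. ATP6V1E1 (chromosome 22, 17592136 to 17628822), the common isoform of stalk subunit E, was at 39.7, 46.1 and 45.2 CPM in shControl and 67.1, 67.6 and 68.6 CPM in shIFITM3. ATP6V1H, the regulatory subunit H that controls activity of the assembled pump, was at 24.7, 23.7 and 22.0 CPM in shControl and 29.9, 31.8 and 33.4 CPM in shIFITM3. Both stalk and regulatory genes were higher in every knockdown sample (ATP6V1E1: log2 fold change 0.62, SE 0.055, adjusted p = 9.01e-10; ATP6V1H: log2 fold change 0.44, SE 0.07, adjusted p = 1.22e-05). ATP6V1C1, subunit C, rose by 0.32 (adjusted p = 0.0763 against 1.2-fold), and ATP6V1F, subunit F, by 0.12. The ATP6V1F call ended without shControl replicate 1 (adjusted p = 0.133) or 3 (0.0646) or shIFITM3 replicate 2 (0.195), and with upper-quartile scaling (0.0653).

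The catalytic core did not rise. ATP6V1A, the subunit that hydrolyses ATP, fell by 0.25 (log2 fold change -0.25, SE 0.045, adjusted p = 6.06e-05), and its partner ATP6V1B2 stayed near its control level (-0.01, adjusted p = 0.904). ATP6V1B1, the B isoform of kidney and inner ear, was near the lower limit of detection, with 16, 34 and 22 counts in shControl and 8, 2 and 5 counts in shIFITM3. Its fall (log2 fold change -1.50, SE 0.539, adjusted p = 0.0213) did not hold without shControl replicate 1 or 3 or shIFITM3 replicate 2 or 3 (adjusted p = 0.0547, 0.0752, 0.108 and 0.0629), which leaves 1 pump gene called lower, and its exons overlap those of VAX2 on the same strand. ATP6V1D (-0.04), ATP6V1G1 (0.07), ATP6V1C2 (-0.02) and the testis-type isoform ATP6V1E2 (-0.32, adjusted p = 0.105) did not pass. ATP6V1G1 passed as higher with the GC and length correction (log2 fold change 0.14, adjusted p = 0.00298) and without shIFITM3 replicate 2 (adjusted p = 0.0396).

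ATP6V1G2, the neuronal subunit G, had 2, 10 and 0 counts in shControl and 4, 2 and 0 in shIFITM3. ATP6V1G3, its kidney form, had 2 counts in shControl replicate 1 and 0 in the other 5 libraries, and the readthrough row ATP6V1G2-DDX39B had 0 in all 6. A count of 0 allows up to 3 counts, or 0.0388 to 0.141 CPM depending on the library. The readthrough row shares exon sequence on the same strand with ATP6V1G2 and DDX39B. If shared reads were left out in counting, the counts of ATP6V1G2 and of the readthrough row could be too low. The 0 of the readthrough row would then set no such limit. Both accessory subunits rose, ATP6AP1 by 0.20 (adjusted p = 8.64e-05) and ATP6AP2, also called the prorenin receptor, by 0.20 (adjusted p = 0.00356). Exon sequence is shared with a gene on the opposite strand also by ATP6V0A4 (TMEM213), ATP6V1C2 (PDIA6), ATP6V1D (EIF2S1), ATP6V1E2 (RHOQ) and ATP6V1F (KCP), and among the listed genes by HEXA (HEXA-AS1) and PPT1 (CAP1), while GLB1 shares it with TMPPE on the same strand and ATP6V0A1 holds the microRNA gene MIR5010.

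**Figure D4:**
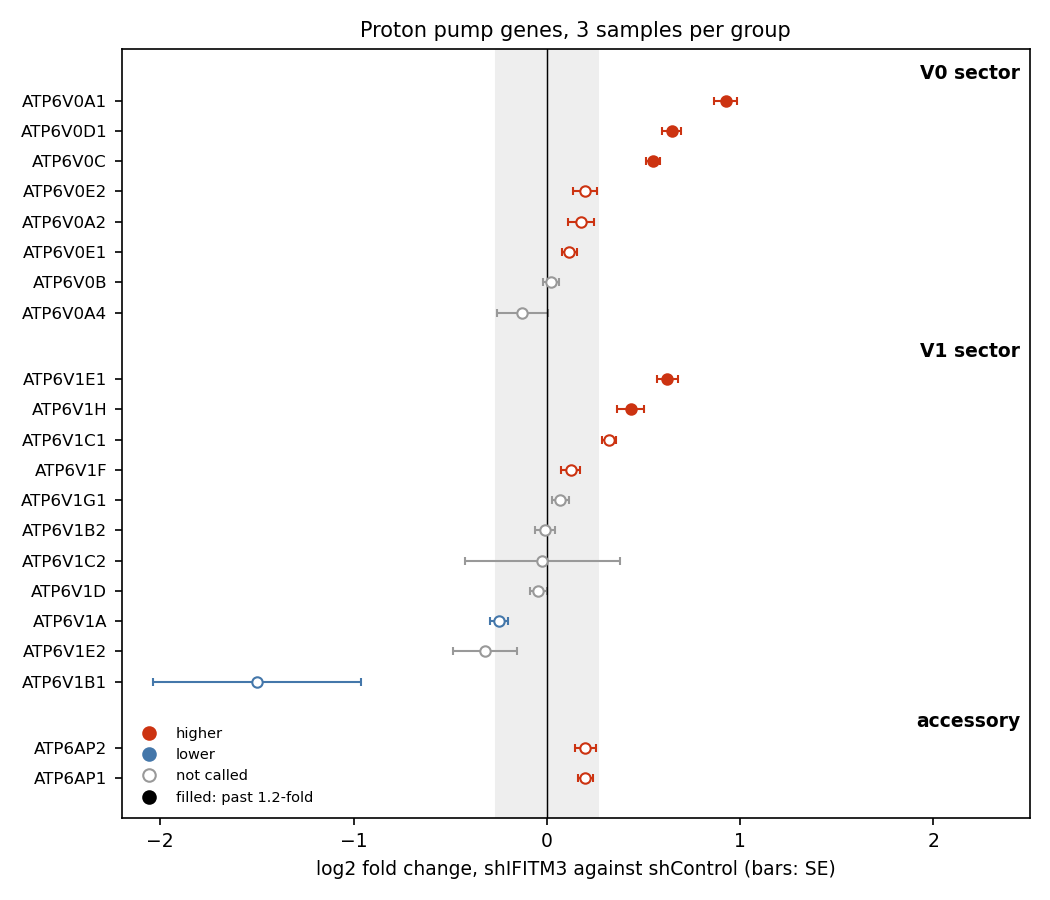
Log2 fold change (shIFITM3 against shControl, x axis) of the 21 tested pump genes, grouped into V0 sector, V1 sector and accessory subunits, with standard errors as bars and points drawn as for the listed genes. ATP6V0A1 lies farthest to the right (0.93), ATP6V1A is at -0.25, and ATP6V1B1 at -1.50 has the widest bar.

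Levels between pump genes were compared per transcript length, as TPM (counts over the length of the longest GENCODE transcript, scaled to the same total in every library). In shControl the order from the top was ATP6V0C (350.3 ± 13.9 TPM, SD, n = 3), ATP6V1F (312 ± 13.3), ATP6V1G1 (295 ± 7.32), ATP6V0E1 (245 ± 6.33) and ATP6V0B (169 ± 5.28). The ring of the assembled pump holds several copies of its proteolipid, which ATP6V0C encodes. The part of copy number in this order of RNA levels was not tested. In the middle lay ATP6AP1 (146 ± 4.88), ATP6V1D (134 ± 4.31), ATP6V0D1 (90.2 ± 5.29), ATP6V1E1 (84.6 ± 6.498), ATP6AP2 (61.6 ± 3.25), ATP6V1C1 (60.9 ± 2.02), ATP6V1A (54.6 ± 2.49) and ATP6V1B2 (50.04 ± 1.21). ATP6V0D1 and ATP6V1E1, neighbours in that order, differed by less than the larger of their SDs, as did ATP6AP2 and ATP6V1C1.

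At the lower end stood ATP6V0E2 (38.4 ± 1.77 TPM), ATP6V1H (26.9 ± 1.66), ATP6V0A1 (21.1 ± 1.47), ATP6V0A2 (11.4 ± 0.160), ATP6V1E2 (6.22 ± 0.550) and ATP6V0A4 (5.77 ± 0.470), the last 2 again within their spread, followed by ATP6V1B1 (0.933 ± 0.274) and ATP6V1C2 (0.659 ± 0.284), also within theirs. In shIFITM3, ATP6V0C reached 525 ± 5.53 TPM, ATP6V0D1 144 ± 6.97, ATP6V1E1 135 ± 1.38 and ATP6V0A1 41.2 ± 1.74, while ATP6V1A went to 47.1 ± 1.25 and ATP6V1B2 to 51.0 ± 2.13. ATP6V0D1 lay below ATP6V1D in the control and above it (133 ± 3.004) in the knockdown, while ATP6V1E1 came level with ATP6V1D within the spread.

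Several subunits have alternative isoform genes, and the make-up of subunit a differed between the groups. TCIRG1, the a3 isoform that was outside the symbol rule, was included in these shares. ATP6V0A1 made up 31.5, 30.4 and 27.6% of subunit a counts in shControl and 45.5, 44.6 and 45.5% in shIFITM3. TCIRG1 made up 36.1, 38.3 and 40.9% in shControl and 26.4, 28.5 and 27.0% in shIFITM3. The leading isoform by counts was TCIRG1 in all control samples and ATP6V0A1 in all knockdown samples. TCIRG1 itself was at 38.8, 41.3 and 44.0 CPM in shControl and 36.4, 37.1 and 37.0 CPM in shIFITM3 (log2 fold change -0.17, SE 0.059, adjusted p = 0.0186).

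The share of ATP6V0A2 went from 25.6 ± 0.278 to 23.0 ± 0.914% and that of ATP6V0A4 from 6.19 ± 0.506 to 4.47 ± 0.264% (SD, n = 3). For these 2 genes the levels were 27.7, 27.7 and 27.1 CPM against 33.1, 28.8 and 31.5 CPM (ATP6V0A2) and 7.16, 6.11 and 6.71 CPM against 5.82, 6.17 and 6.11 CPM (ATP6V0A4). So the lower share of ATP6V0A2 went with a slightly higher level. Counted per transcript length, ATP6V0A1 went from 26.3 ± 2.06 to 42.0 ± 0.835% and TCIRG1 from 52.2 ± 2.65 to 39.1 ± 1.205%. For both genes the 2 groups still did not overlap. ATP6V0A2 per transcript length went from 14.2 ± 0.323 to 13.5 ± 0.660%, and there the groups overlapped.

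For subunit E, ATP6V1E2 made up 9.37, 9.01 and 9.83% of counts in shControl and 5.32, 4.48 and 5.48% in shIFITM3, and ATP6V1E1 the rest. ATP6V1E2 was at 4.10, 4.56 and 4.93 CPM in shControl and 3.77, 3.17 and 3.98 CPM in shIFITM3 (adjusted p = 0.105), with no overlap, although the difference did not pass. In subunits B and d the minor isoform stayed rare: ATP6V1B1 was 1.44, 0.831 and 1.45% in shControl and 0.689, 0.172 and 0.379% in shIFITM3, and ATP6V0D2 was 0, 0.0466 and 0% in shControl and 0.523, 0.0926 and 0.386% in shIFITM3. ATP6V1B2, the major B isoform, was at 51.7, 52.7 and 54.5 CPM in shControl and 52.4, 50.5 and 55.0 CPM in shIFITM3. The shares of ATP6V0E1 and ATP6V0E2 and those of the isoforms of subunits C and G overlapped between the groups.

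Of the 16 isoform shares computed from counts, 10 did not overlap between the groups. An exact two-sided permutation test on 3 against 3 samples cannot go below p = 0.1, which those 10 reached (0.16 after Benjamini-Hochberg adjustment over the 16), so no share passed a threshold of 0.05. The 2 shares of a subunit with 2 isoforms mirror each other.

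**Figure D5:**
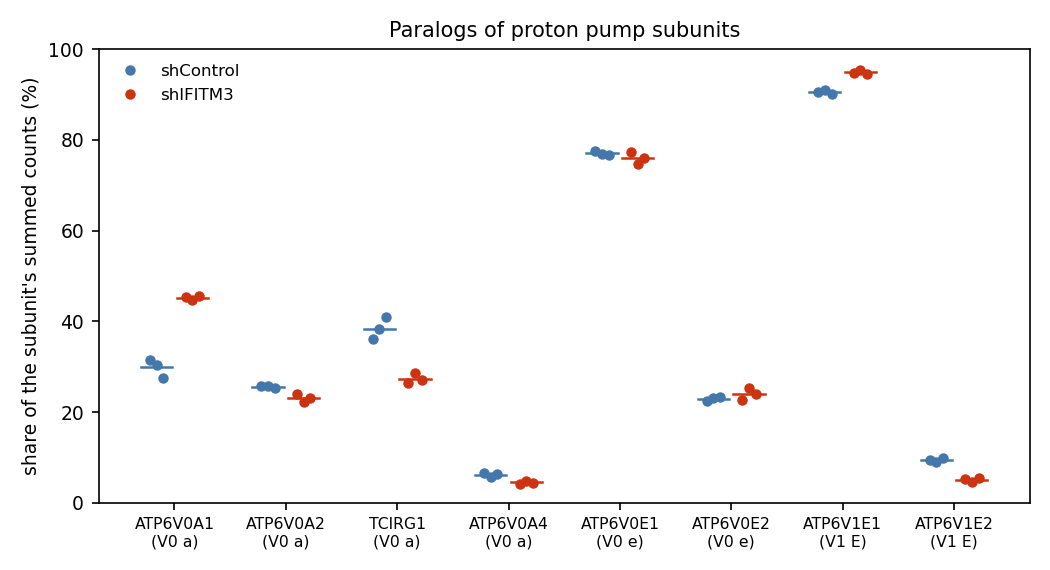
Share of each isoform gene in the summed counts of pump subunits a, e and E (y axis, percent), with a point for each of the 6 samples and a line at each group mean. In subunit a the share of ATP6V0A1 is 27.6 to 31.5% in shControl and 44.6 to 45.5% in shIFITM3, and that of TCIRG1 is lower in shIFITM3.

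The wider set of 115 other lysosomal genes, of which 110 were tested, had a median log2 fold change of 0.11. In it 45 rose, 19 fell and 46 did not pass, so 58.2% changed in either direction, near the 56.1% of all tested genes. By direction, the share that rose was above the 27.7% of all tested genes, and the share that fell was below their 28.4%. Past 1.2-fold were 24 higher and 6 lower, together 27.3% of the tested ones, near the 25.0% of all tested genes. Here too the share higher was above that of all tested genes (14.5%) and the share lower was below it (10.5%). These differences in share were not tested.

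Other proteases and enzymes of this set moved like the listed ones in part. Of 9 tested proteases 6 rose and none fell (edgeR, also at an unadjusted p under 0.05, DESeq2 and limma-voom), led by the cysteine cathepsins CTSF (1.13, adjusted p = 1.16e-11) and CTSO (0.70, adjusted p = 8.09e-06), with the serine carboxypeptidase SCPEP1 at 0.48 and the dipeptidyl peptidase DPP7 at 0.22. Of 12 glycosidases and glycosaminoglycan enzymes 5 rose and 1 fell: CTBS (0.52), which trims chitobiose, and HGSNAT (0.42), which acetylates heparan sulfate for its breakdown, were higher, and SIAE, a sialic acid esterase, fell by 0.36. None of the 4 other sulfatase genes (ARSG, ARSK and the sulfatase activators SUMF1 and SUMF2) passed edgeR's test, DESeq2 or limma-voom, at log2 fold changes between -0.30 and 0.01, and 1 of them was lower at an unadjusted p under 0.05 (edgeR). Of 13 lipid and phosphate enzymes (nucleases among them) 4 rose and 2 fell, with SMPD1, the acid sphingomyelinase, at 0.51, DNASE2 at 0.34, and ACP2, the lysosomal acid phosphatase, lower by 0.36.

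Membrane proteins of this set changed more often than its enzymes by count, 15 higher and 5 lower of 29 tested, and 11 passed 1.2-fold (10 higher). That difference between roles was not tested. GPNMB, a glycoprotein of lysosomes and melanosomes, was at 7.73, 7.46 and 7.15 CPM in shControl and 22.4, 21.4 and 27.2 CPM in shIFITM3 (log2 fold change 1.67, SE 0.1, adjusted p = 1.26e-12). SLC17A5, the sialic acid exporter sialin, was at 30.4, 29.6 and 29.5 CPM in shControl and 61.1, 55.3 and 60.9 CPM in shIFITM3 (log2 fold change 0.99, SE 0.057, adjusted p = 3.66e-13). The sialidase NEU1 and the exporter of its product were thus both higher in all 3 knockdown samples, without overlap. TMEM106B (0.63) and CLCN7, the chloride and proton exchanger (0.61), also rose.

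Of the 11 genes that tag and sort hydrolases 2 rose, 3 fell and 6 did not pass the test. CLN6, which helps enzymes leave the endoplasmic reticulum, fell by 0.51 and was the one of them past 1.2-fold (adjusted p = 3.5e-05 in that test), its partner CLN8 rose by 0.28, GGA2, a Golgi sorting adaptor, fell by 0.26 and GNPTAB, a subunit of the phosphotransferase that makes the tag, fell by 0.14. The GNPTAB call ended without shControl replicate 2 (adjusted p = 0.0604). The mannose 6-phosphate receptors M6PR (0.02) and IGF2R (0.04) did not pass.

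Of 12 tested pump subunits and assembly factors outside the symbol rule 1 rose and 5 fell. The share that passed in either direction was no larger than the 56.1% of all tested genes. By direction, the share that fell was above the 28.4% of all tested genes, and the share that rose was below their 27.7%. These differences in share were not tested. In the RAVE-like complex that joins V1 to V0, DMXL1 fell by 0.31, DMXL2 by 0.50 (adjusted p = 2.2e-07) and WDR7 by 0.51 (adjusted p = 3.18e-05), and ROGDI (-0.14) did not pass. TMEM9, a membrane protein that binds the pump, fell by 0.66 (adjusted p = 6.33e-12). Among regulators of mTORC1 and TFEB at the lysosome 12 of 20 rose and 3 fell. FLCN (0.73, adjusted p = 3.14e-09) and its partner FNIP1 (0.75, adjusted p = 4.23e-10), which act on the Rag GTPases, rose, as did SQSTM1 (0.93), the autophagy receptor p62, while MTOR fell by 0.44 (adjusted p = 1.62e-09).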

How the data were processed

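RNA of 6 PC-9 samples was read as gene counts. The authors deposited raw counts per gene in 1 table, and the submitters' processing notes name HISAT2 2.2.1 and featureCounts (Subread 2.0.6) with SAMtools 1.20, fastp 0.23.4 and FastQC 0.12.1, and the build hg38. For the counting, annotation and use of strand were not given in the sources used here. Of the tested members, 17 share exon sequence with another gene in GENCODE release 29. The kit was Illumina Stranded mRNA Prep, per the labels' protocols.

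Counts were tested in R 4.3.3 with edgeR 4.0.16 (filterByExpr by group, TMM, glmQLFit on group, glmQLFTest, two-sided, Benjamini-Hochberg adjustment over 14018 genes, threshold 0.05) and with glmTreat against a fold of 1.2. SE is the absolute log2 fold change over the root of F. Limits for a count of 0 use 3 counts and cover counting error only. The fits were tested on simulated data. Coordinates and promoter windows come from RefSeq (GRCh38.p14).

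Members and lists were chosen with earlier results of these data known. The text names every member, gives values in every sample for members past 1.2-fold, TFEB, TFE3, MITF, LAMP1, LAMP2 and isoforms with shares that do not overlap, and names up to 4 other lysosomal genes per role with the smallest p. Some genes that this rule takes are not reported here. Genes named beyond that rule (M6PR, IGF2R, ROGDI and the sulfatase genes that did not pass) were chosen after their values were seen. Alternatives were other scalings, filters, DESeq2 1.42.0, limma-voom (limma 3.58.1), a replicate block, GC and length correction, thinning of the deepest library and leaving out each library.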

Additional observations from a re-analysis of the deposited data

How the results depend on the processing

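Counts and medians were recomputed under 17 alternatives (187 values) and isoform shares without each library and per transcript length (112 values). Of these 299 values 278 were scored as the same (medians and shares: within the main value's spread), 21 as moved or weaker and 0 as reversed. The score allowed small changes of a call count. Scored as the same were, for example, 6 (RLE scaling) and 9 (upper-quartile scaling) listed genes lower, against 7 in the main fit. Pump genes higher were 11 with upper-quartile scaling and 13 with no filter on low counts, against 12, also scored as the same. Of all tested genes, 56.8% passed with upper-quartile scaling and 42.0% with no filter on low counts, against 56.1%. The median log2 fold change of the other lysosomal genes was 0.0873 with upper-quartile scaling, 0.0753 with the GC and length correction and 0.0722 with that correction and the replicate block, and that of the listed genes 0.11 and 0.112 under the last 2. The median over all tested genes moved down as well, to -0.0181, -0.0292 and -0.0294 in these settings in the same order. A strict filter (50 counts in 3 samples), which leaves ATP6V1C2 and ATP6V1B1 untested, gave 1 pump gene lower and a pump median of 0.19. Per transcript length, shares differed by -0.732 (ATP6V0A2), -13.2 (TCIRG1), -1.22 (ATP6V1B1), 1.22 (ATP6V1B2), 3.18 (ATP6V1E1) and -3.18 (ATP6V1E2) percentage points. Leaving out 1 library at a time gave 17 to 20 listed genes higher and 5 to 6 lower, against 19 and 7 with all 6 libraries. Pump genes were 10 to 11 higher and 1 to 2 lower, against 12 and 2. Past 1.2-fold were 10 to 11 listed and 4 to 6 pump genes, against 11 and 5. In those fits 50.1 to 53.0% of all tested genes passed, against 56.1%. The medians were 0.133 to 0.183 for the listed genes, 0.131 to 0.17 for the pump genes and 0.0861 to 0.114 for the others. Of the 40 called members 31 kept their call in every alternative and 9 lost it in at least 1, and 5 of 15 uncalled members passed in at least 1. Same-numbered samples did not deviate together (r = 0.0157, 0.033 and 0.0063 between deviations from the group means), so the numbers were not taken as pairs, and not every sample correlated best with its own number. With the replicate block 3865 genes were higher and 4005 lower, and no count of members was scored as changed. GAA then passed (adjusted p = 0.0497) and TFEB did not (adjusted p = 0.0691, edgeR). Low-count members such as ATP6V1B1, ATP6V0D2 and ATP6V1G2 are limited by depth, and the shControl replicate 2 library was the deepest.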

Other observations

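Among the other lysosomal genes, some with large log2 fold changes fell outside the rule for named genes and were picked after their values were seen. RRAGD, a Rag GTPase that is a known target of the TFEB family, had few counts (10, 28 and 6 in shControl, 18, 24 and 17 in shIFITM3). Scaled for depth, these were 0.471, 0.364 and 0.219 CPM in shControl and 0.818, 1.04 and 0.711 CPM in shIFITM3. RRAGD rose from this low level (log2 fold change 1.29, SE 0.42, adjusted p = 0.0118 by edgeR). MCOLN3, a channel related to MCOLN1, was at 7.87, 7.68 and 5.44 CPM in shControl and 13.3, 12.7 and 14.6 CPM in shIFITM3 (log2 fold change 0.94, SE 0.12). LAPTM5, a lysosomal membrane protein of blood cells, fell by 0.84 (adjusted p = 0.00083 by edgeR) from 3.54, 4.22 and 3.32 CPM to 1.91, 2.26 and 2.09 CPM. RNASEK, a small protein of the V0 sector, had few counts (14, 78 and 9 in shControl, 15, 25 and 41 in shIFITM3) and did not pass. It shares exon sequence on the same strand with C17orf49 and the readthrough RNASEK-C17orf49, so its counts are too low if shared reads were left out in counting.

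Rows of the pump's name series that the symbol rule left out were low. The antisense gene ATP6V0E2-AS1 had 18, 52 and 8 counts in shControl and 8, 32 and 16 in shIFITM3, ATP6V1B1-AS1 at most 10 counts in a library, and the pseudogene row ATP6V0CP3 1 count in shControl replicate 3 and 0 elsewhere. ATP6AP1L, a row annotated as a transcribed pseudogene, had 6, 43 and 12 counts in shControl and 15, 9 and 10 in shIFITM3. In both groups the ATP6V0E2 row exceeded its antisense partner by a wide margin, at 36.6 to 40.4 CPM in shControl against 0.292 to 0.848 CPM for the antisense row.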
